A study of Homo sapiens with 18 samples.

Results

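Oxidative phosphorylation is carried out by 5 protein complexes of the inner mitochondrial membrane, and the mRNAs of their nuclear-encoded subunits were examined here in cultures whose label is A549, a cell line from a human lung adenocarcinoma. The genes were picked by name from the expression table: names that begin with NDUFA, NDUFB, NDUFC, NDUFS or NDUFV and a digit, SDHA to SDHD, and names that begin with UQCR, with COX and a digit of the subunit series, or with ATP5. Names that end in P and a number, as pseudogenes do, were left out, and a mean of at least 1 FPKM (fragments per kilobase of transcript, scaled to the mapped fragments of the library) over the 9 input libraries was required. The rule found 80 of the 36576 genes in the table, 37 of complex I, 4 of complex II, 9 of complex III, 12 of complex IV and 18 of complex V. The cells had been exposed for 24 h to 10 mg/L BPQD (black phosphorus quantum dots), exposed for 24 h to 100 mg/L TiO2 (titanium dioxide), or left untreated as the control. Every group has 3 RNA-seq libraries of input RNA, and 3 more made after pull-down of RNA that carries N6-methyladenosine (m6A), a methyl mark inside mRNA. All libraries come from 1 labelled line, and both exposures lasted 24 h, while the labels give no time for the control. BPQD and TiO2 were given at unlike doses, which any contrast of the materials includes. Whether replicates are separate cultures is not stated in the labels, and p-values therefore reflect only how far these samples scatter, which may be technical.

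Complexes I and II pass electrons from NADH and from succinate to ubiquinone, complex III passes them on to cytochrome c, and complex IV to oxygen. Complexes I, III and IV pump protons as they do so, and complex V, the ATP synthase, makes ATP from the proton gradient. Complexes I, III, IV and V also hold subunits encoded by mitochondrial DNA, while every subunit of complex II is nuclear. Each complex has core subunits, and, except complex II, a larger number of accessory subunits that surround them. Counted as core here are the 7 nuclear subunits of complex I that have bacterial counterparts, all of complex II, the large proteins UQCRC1 and UQCRC2 and the Rieske protein UQCRFS1 of complex III, and the alpha to epsilon subunits of complex V, 19 in all; the core subunits that mitochondrial DNA encodes, and CYC1, are not among them. No member of complex IV counts as core, nor do the peripheral stalk and c-ring members of complex V. A549 cells, like other tumour lines in culture, take energy both from glycolysis and from this pathway.

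Of 90 names that match the pattern, 10 lay under the minimum. The nearest below it were the antisense RNA NDUFB2-AS1, with a mean of 0.734 FPKM, and NDUFA6-DT, a divergent transcript, with 0.547 FPKM. The nearest above it were NDUFC2-KCTD14, a read-through of NDUFC2 and the gene next to it, with 2.33 FPKM, and NDUFS7 with 3.45 FPKM. The muscle isoform COX7A1, the testis isoforms COX6B2 and COX7B2 and the hypoxia-linked NDUFA4L2 were among those under the minimum, none of them above 0.614 FPKM in any library. No member had a group mean under 1.12 FPKM or a value of 0 in any library.

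Libraries of the same group correlated at 0.980 to 0.983 over log2 values of the 12224 genes that pass the minimum, and libraries of different groups at 0.966 to 0.975. The relative depth of the libraries, read from the steps between low FPKM values, ranged from 0.771 to 1.093 of that of BPQD replicate 1. Of 8 markers of the labelled line, KRT8, KRT18 and EPCAM passed the minimum, while AKR1B10, AKR1C1, ALDH1A1, NKX2-1 and SFTPB, several of them high in A549 cells as usually described, peaked at 0.998, 1.14, 0.116, 0.0970 and 0.0336 FPKM. Of 14 markers of leukocytes, fibroblasts and endothelium, 9 were under the minimum, and PTPRC, CD3E and CD79A reached at most 0.0852 FPKM. The 5 leukocyte markers summed to 11.8 to 12.8 FPKM under BPQD, 17.6 to 23.1 under TiO2 and 11.1 to 13.2 in control cells, nearly all of it CD68. The 5 fibroblast markers summed to 12.7 to 23.8, 25.9 to 35.2 and 27.6 to 28.2 FPKM in the same order. Most of that was LUM, which averaged 13.9, 24.7 and 20.5 FPKM. COL1A1, DCN and PDGFRB averaged less under both materials than in control cells, and COL1A2 was near 0. The 4 endothelial markers summed to 1.19 to 1.35, 2.15 to 3.92 and 3.02 to 3.66 FPKM. KRT18 had 403 to 410 FPKM under BPQD, 468 to 489 under TiO2 and 579 to 582 in control cells. The part of these markers in the results below was not tested. In bulk RNA, fewer cells of a type and less RNA per cell cannot be told apart.

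The level of the subunits, per kilobase of transcript, spread widely within each complex. NDUFS5 (chr1:39026318-39034636), an accessory subunit on the intermembrane side of complex I, was the highest of all members, with a mean of 554 FPKM over the 9 libraries. The highest of the other complexes were SDHB in complex II, UQCRH in complex III, COX6A1 in complex IV and ATP5F1B, the catalytic beta subunit, in complex V. Of the 80 members, 69 had a mean of at least 10 FPKM. NDUFV2, a core subunit of complex I, was low beside several accessory ones, at 26.7 FPKM under BPQD, 31.1 under TiO2 and 27.7 in control cells on average. Mature transcripts of several members have near-identical copies in the genome: 33 members have at least 1 listed copy, 77 in all, which together had a mean sum of 27.8 FPKM against 4420 FPKM for the members. How reads shared by a gene and its copy were assigned is not given in the sources used here, so values of members with such copies are uncertain to that extent, as are those of UQCRH and UQCRHL, a close copy of it.

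Summed over the members, FPKM were lowest under BPQD in each complex except complex V. The 80 members together summed to 4206 ± 58.3 FPKM under BPQD, 4415 ± 26.4 under TiO2 and 4640 ± 25.3 in control cells (SD, n = 3 each). These are 1.97%, 2.01% and 2.09% of the summed FPKM of all genes, a sum that itself was 213571 under BPQD, 219559 under TiO2 and 222081 in control cells. In percent of the control mean, complex IV was lower under BPQD by the widest margin (-13.8%, against -12.8% for complex III and -11.1% for complex I). It summed to 747 ± 6.29 FPKM under BPQD, 813 ± 10.3 under TiO2 and 866 ± 8.52 in control cells. Complex III summed to 501 ± 1.86, 523 ± 3.41 and 575 ± 6.40 FPKM in the same order, and complex I to 1656 ± 9.61, 1776 ± 12.3 and 1863 ± 14.7. The libraries of the 3 groups did not overlap in complexes I, III and IV. Complex II summed to 112 ± 0.991 FPKM under BPQD, below all other libraries, to 127 ± 6.28 under TiO2 and to 124 ± 3.59 in control cells, where the TiO2 and control libraries overlapped. Complex V summed to 1131 to 1228 FPKM under BPQD, 1161 to 1188 under TiO2 and 1191 to 1245 in control cells, and its BPQD libraries overlapped with both other groups.

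**Figure D1:**
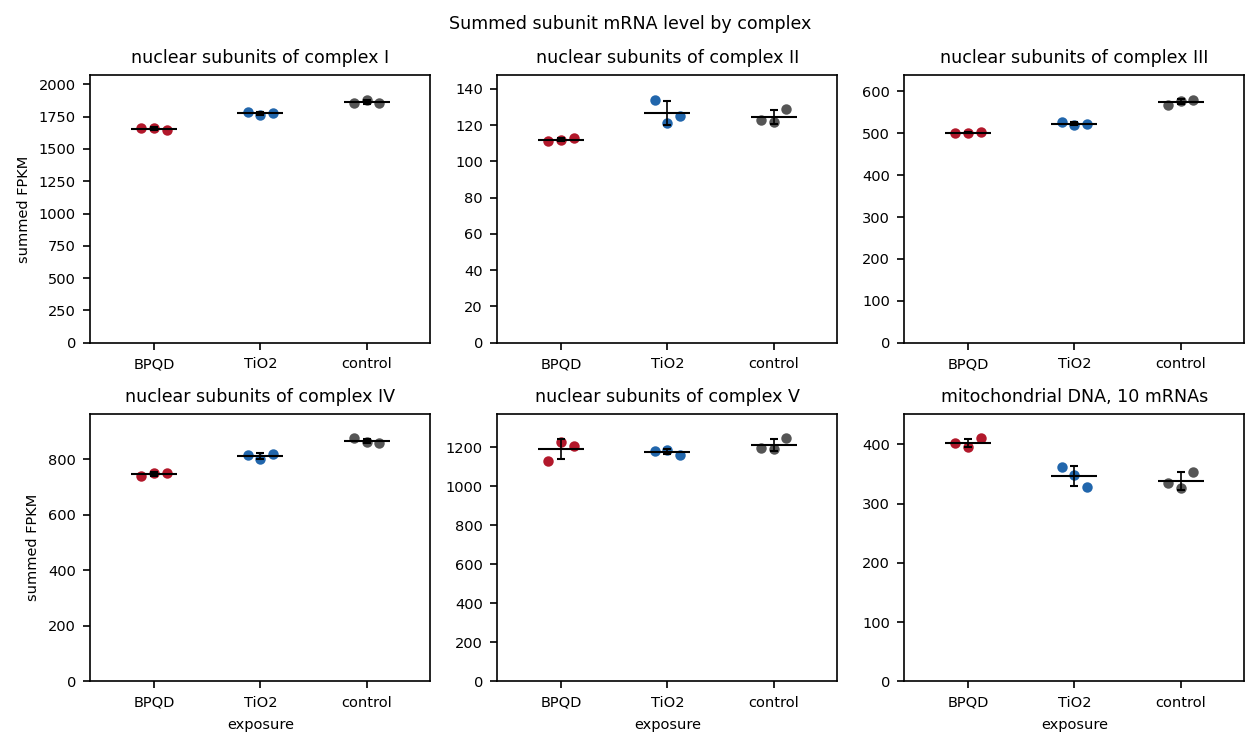
Summed FPKM of the nuclear subunits of each complex, and of 10 genes of mitochondrial DNA, in each input library under BPQD, under TiO2 and in control cells. Points are libraries and bars are the mean ± SD (n = 3 each). The nuclear sums of complexes I, III and IV are lowest under BPQD, intermediate under TiO2 and highest in control cells. The sum of the 10 genes of mitochondrial DNA is highest under BPQD (403 ± 6.75 FPKM).

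Promoters of these genes are known to carry sites for NRF1, for ETS-family factors such as GABP, and for YY1. In RefSeq sequences on GRCh38.p14, 66 of the 80 members had at least 1 window from 250 bases before to 50 bases after an annotated start, 79 windows in all. On either strand, the NRF1 letters (GCGCA, any base, GCGC) stood in 20.3% of the members' windows, against 10.8% of the windows of all tested genes and 5.78% of all promoters. The ETS letters CCGGAAG stood in 27.8% against 18.3% and 10.3%, and the YY1 letters AANATGGC in 35.4% against 10.0% and 6.58%. The 3 runs of letters differ, and a window may hold more than 1 of them. The stretches of 120 bases just before the start that hold at least 2 matches were found in 5 members and are shown here, because such letters stood in a larger share of the members' windows than of all promoters. They belong to NDUFS3, a core subunit of the matrix arm of complex I (chr11:47578954-47579073, plus strand), SDHA, the flavoprotein of complex II (chr5:218200-218319, plus strand), SDHD, a membrane anchor of complex II (chr11:112086753-112086872, plus strand), UQCR11, a small subunit of complex III (chr19:1605463-1605582, minus strand), and ATP5PF, a peripheral stalk subunit of complex V (chr21:25735055-25735174, minus strand). They are written 5′ to 3′ along the gene, with the matched letters in capitals, CTTCCGG being the ETS letters on the other strand.
NDUFS3: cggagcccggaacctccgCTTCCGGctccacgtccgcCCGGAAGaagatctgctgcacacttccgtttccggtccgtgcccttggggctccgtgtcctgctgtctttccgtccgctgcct
SDHA: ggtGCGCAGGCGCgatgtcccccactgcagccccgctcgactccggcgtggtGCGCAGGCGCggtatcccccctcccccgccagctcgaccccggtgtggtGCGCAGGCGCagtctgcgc
SDHD: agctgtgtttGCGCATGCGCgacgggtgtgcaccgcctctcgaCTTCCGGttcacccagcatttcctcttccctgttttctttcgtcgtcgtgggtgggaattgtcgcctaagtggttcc
UQCR11: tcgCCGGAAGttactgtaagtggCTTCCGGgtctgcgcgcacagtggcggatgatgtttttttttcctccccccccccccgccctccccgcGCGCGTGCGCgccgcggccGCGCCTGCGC
ATP5PF: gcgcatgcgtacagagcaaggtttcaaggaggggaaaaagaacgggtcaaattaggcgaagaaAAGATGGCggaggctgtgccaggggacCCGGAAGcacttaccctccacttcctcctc
A match is a run of letters and not a measured site. Repeated NRF1 letters stand 3 times in the SDHA window, and the UQCR11 window holds both NRF1 and ETS letters. The calls given below by these letters were as follows, with no test of the difference. Under BPQD against control, 24 of the 46 members with any of the 3 in a window were lower and 1 was higher, and of the 20 without, 7 were lower and 1 higher. Under TiO2 against control the counts were 16 lower and 10 higher of 46, and 6 lower and 1 higher of 20. Under BPQD against TiO2 they were 22 lower and 0 higher of 46, and 4 lower and 2 higher of 20. Over all tested genes, 23.4% were lower and 20.6% higher under BPQD against control, and 20.5% and 17.3% under TiO2 against control. For BPQD against TiO2 these shares were 18.6% and 19%.

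BPQD was set against control first. Of the 80 members, 39 (48.8%) were lower under BPQD, 2 (2.50%) were higher and 39 did not pass the test (limma, Benjamini-Hochberg adjusted p under 0.05 over all 12224 genes, two-sided). Over all genes tested, 23.4% were lower and 20.6% higher, 44% in all, and where the mean reached 10 FPKM 28.4% were lower and 27.6% higher. Rescaled to TPM (values scaled to one common sum per library), the share of higher genes among all called ones moved from 46.9% to 58.3%. The median log2 fold change was -0.17 over the members and -0.01 over all genes tested, so the typical difference was small. The lower calls covered 15 of 37 members of complex I, 2 of 4 of complex II, 7 of 9 of complex III, 10 of 12 of complex IV and 5 of 18 of complex V. Core subunits were called lower in 6 of 19 cases and all other members in 33 of 61, a contrast that was not tested. It is mixed with complex, as all 12 members of complex IV, 10 of them lower, stand among the others. Of the 39 lower calls, 32 held when any 1 of the 9 libraries was left out, and 29 held under every alternative processing tried. Throughout, log2 fold changes are given ± SE on the log2(FPKM + 1) scale, with 3 libraries per group.

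In complex I, the largest fall among called members was in NDUFB11 (chrX:47142216-47145504), an accessory subunit of the membrane arm. It had 58.6, 56.6 and 57.5 FPKM under BPQD, against 75.1, 76.4 and 73.6 FPKM in control cells. All BPQD libraries lay below all control libraries, and the log2 fold change was -0.38 ± 0.02 (limma adjusted p = 1.88e-05). Other accessory subunits of the membrane arm fell as well, among them NDUFC1 (-0.28 ± 0.07), NDUFA11 (-0.28 ± 0.04), NDUFB7 (-0.28 ± 0.02), NDUFB8 (-0.26 ± 0.03), NDUFB2 (-0.24 ± 0.03) and NDUFB6 (-0.24 ± 0.05). The abundant NDUFS5 had 528, 517 and 525 FPKM under BPQD and 567, 579 and 588 FPKM in control cells, a fall of 0.14 ± 0.02 on the log2 scale (limma adjusted p = 0.000563) that was not called after quantile normalization (-0.02, adjusted p = 0.515). Of the 7 core subunits, NDUFS7, which carries an iron-sulfur cluster next to the ubiquinone site, was called lower (-0.20 ± 0.05, limma adjusted p = 0.0089), at 3.09, 3.25 and 3.23 FPKM under BPQD and 3.68, 3.93 and 3.81 FPKM in control cells. The other core subunits were not called: NDUFS1, which takes part in the electron path from NADH, had 16.0 ± 0.257 FPKM under BPQD and 15.5 ± 0.753 in control cells.

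NDUFA10 (chr2:239892450-240025345), an accessory subunit of the membrane arm, was the 1 member of complex I called higher. It had 8.57, 8.62 and 8.45 FPKM under BPQD, against 7.30, 7.07 and 7.41 FPKM in control cells. Its BPQD libraries lay above all control libraries (log2 fold change 0.21 ± 0.04, limma adjusted p = 0.00366). Several complex I members had wide spreads that leave their differences undecided. NDUFB9 had 15.2, 10.0 and 13.2 FPKM under BPQD and 19.6, 19.3 and 26.3 FPKM in control cells, groups that did not overlap but were not called (limma adjusted p = 0.0822). NDUFA6 had 66.9, 61.8 and 37.2 FPKM under BPQD and 39.8, 41.0 and 41.6 FPKM in control cells, so its BPQD libraries split around the control. The read-through NDUFC2-KCTD14 ranged from 0.0183 to 2.64 FPKM under BPQD and from 1.33 to 6.73 in control cells and was not called.

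In complex II, SDHB (chr1:17018722-17054170), the iron-sulfur subunit, fell. It had 50.2, 51.3 and 50.2 FPKM under BPQD, against 54.3, 55.7 and 55.8 FPKM in control cells (log2 fold change -0.13 ± 0.02, limma adjusted p = 0.00165). The BPQD libraries lay below all control libraries. SDHC, a membrane anchor that binds haem with SDHD, had 7.57, 5.44 and 5.05 FPKM under BPQD and 8.03, 7.75 and 7.81 FPKM in control cells (-0.35 ± 0.12, limma adjusted p = 0.0465). Its call was lost without any 1 library other than BPQD replicate 1 (adjusted p = 0.0577 to 0.132). It was also lost with no filter, only the 6 libraries compared, replicate number as a block or another scaling (0.0588 to 0.0992). SDHA had 38.0 ± 1.91 FPKM under BPQD and 44.9 ± 3.22 in control cells (limma adjusted p = 0.0981), and SDHD had 17.7 ± 0.817 and 16.4 ± 0.537 (limma adjusted p = 0.115), neither being called.

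In complex III, 7 of 9 members fell. UQCRC1 (chr3:48599002-48610976), one of the large core proteins, had 63.3, 67.3 and 66.4 FPKM under BPQD, against 80.6, 81.8 and 81.6 FPKM in control cells. All BPQD libraries were lower, with a log2 fold change of -0.30 ± 0.03 (limma adjusted p = 0.000128). UQCR11 fell by 0.27 ± 0.03 on the log2 scale and UQCRHL also by 0.27 ± 0.05, while the hinge protein UQCRH, the most abundant of the complex, had 241, 236 and 241 FPKM under BPQD and 270, 279 and 276 FPKM in control cells (-0.20 ± 0.02, limma adjusted p = 0.000117). UQCRQ (-0.21 ± 0.03), UQCR10 (-0.15 ± 0.03) and UQCRB (-0.10 ± 0.03) completed the lower calls, that of UQCRB being lost without control replicate 3 (adjusted p = 0.0554), after median centring (0.0607) and as TPM, where it was -0.045 (0.207). The partner of UQCRC1, UQCRC2, had 27.6 ± 0.461 FPKM under BPQD and 27.4 ± 1.14 in control cells, and the Rieske iron-sulfur protein UQCRFS1 had 21.0 ± 0.296 and 21.8 ± 0.792 FPKM, neither of which passed the test.

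Complex IV had the largest share of lower calls, 10 of 12. COX5B (chr2:97646040-97648383), a zinc-binding subunit on the matrix side, had 81.5, 84.2 and 85.9 FPKM under BPQD, against 112, 113 and 111 FPKM in control cells. The groups were far apart relative to their spread, and the log2 fold change of -0.41 ± 0.03 was the largest fall among called members (limma adjusted p = 2.95e-05). NDUFA4, first assigned to complex I and now placed in complex IV, had 30.2, 29.9 and 30.9 FPKM under BPQD and 37.4, 38.1 and 38.3 FPKM in control cells (-0.31 ± 0.03, limma adjusted p = 8.28e-05). COX6A1, the isoform of most tissues, fell by 0.27 ± 0.02 on the log2 scale, and COX4I1, the largest nuclear subunit, by 0.22 ± 0.03. COX6B1 (-0.20 ± 0.03), COX6C (-0.19 ± 0.04), COX7A2 (-0.18 ± 0.04), COX7B (-0.17 ± 0.03), COX8A (-0.14 ± 0.03) and COX5A (-0.11 ± 0.03) were also lower. The call of COX5A needed each of BPQD replicates 2 and 3 and control replicates 1 and 2 (adjusted p = 0.0586 to 0.0794 without one of them) and was also lost with no filter (0.0568), after median centring (0.0728) and as TPM, where the log2 fold change was -0.05 (0.219). That of COX8A ended after quantile normalization. COX7C had 78.2 ± 4.59 FPKM under BPQD and 79.1 ± 1.92 in control cells, and COX7A2L, which joins complexes III and IV into supercomplexes, had 15.8 ± 1.29 and 18.0 ± 1.16 FPKM, neither being called.

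Complex V had 5 members lower, 1 higher and 12 not called. ATP5PB (chr1:111448864-111462773), the b subunit of the peripheral stalk, was the higher one, at 75.9, 76.9 and 73.7 FPKM under BPQD, against 63.3, 63.2 and 61.2 FPKM in control cells. All BPQD libraries lay above all control libraries (log2 fold change 0.27 ± 0.04, limma adjusted p = 0.00195). The lower calls included 2 small membrane subunits, ATP5MD, at 96.3, 96.2 and 96.3 FPKM under BPQD and 112, 109 and 110 FPKM in control cells (-0.20 ± 0.03, limma adjusted p = 0.000586), and ATP5MPL (-0.25 ± 0.08), which was no longer called when BPQD replicate 1 or 2, TiO2 replicate 3 or control replicate 1 or 2 was left out (adjusted p = 0.0516 to 0.116), and with no filter, as TPM or after median centring (0.0505 to 0.0871). The epsilon subunit of the central stalk, ATP5F1E, fell by 0.18 ± 0.03 on the log2 scale. The gamma subunit ATP5F1C had a log2 fold change of -0.07 ± 0.02 (limma adjusted p = 0.0289), lost without any 1 BPQD library or control replicate 2 or 3 (adjusted p = 0.0566 to 0.0891), and also with no filter, after median centring and as TPM, where it was -0.01 (0.0524 to 0.67).

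The c-ring of the ATP synthase is encoded by 3 genes that give the same mature protein, of which ATP5MC3 was called lower; differences among the 3 were not tested. ATP5MC3 had 19.6, 19.4 and 19.6 FPKM under BPQD, against 22.6, 21.9 and 23.1 FPKM in control cells (log2 fold change -0.19 ± 0.03, limma adjusted p = 0.000613). ATP5MC1 had 46.4 ± 1.99 FPKM under BPQD and 45.3 ± 0.894 in control cells, and ATP5MC2 had 69.0 ± 5.51 and 76.6 ± 3.92 FPKM (-0.15 ± 0.06, limma adjusted p = 0.0922), neither being called. The catalytic beta subunit ATP5F1B had 326, 390 and 381 FPKM under BPQD and 336, 336 and 370 FPKM in control cells, so its groups overlapped. ATP5F1D, the delta subunit, had 5.06, 9.97 and 12.6 FPKM under BPQD and 12.9, 13.4 and 15.2 FPKM in control cells and was not called (limma adjusted p = 0.184).

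**Figure D2:**
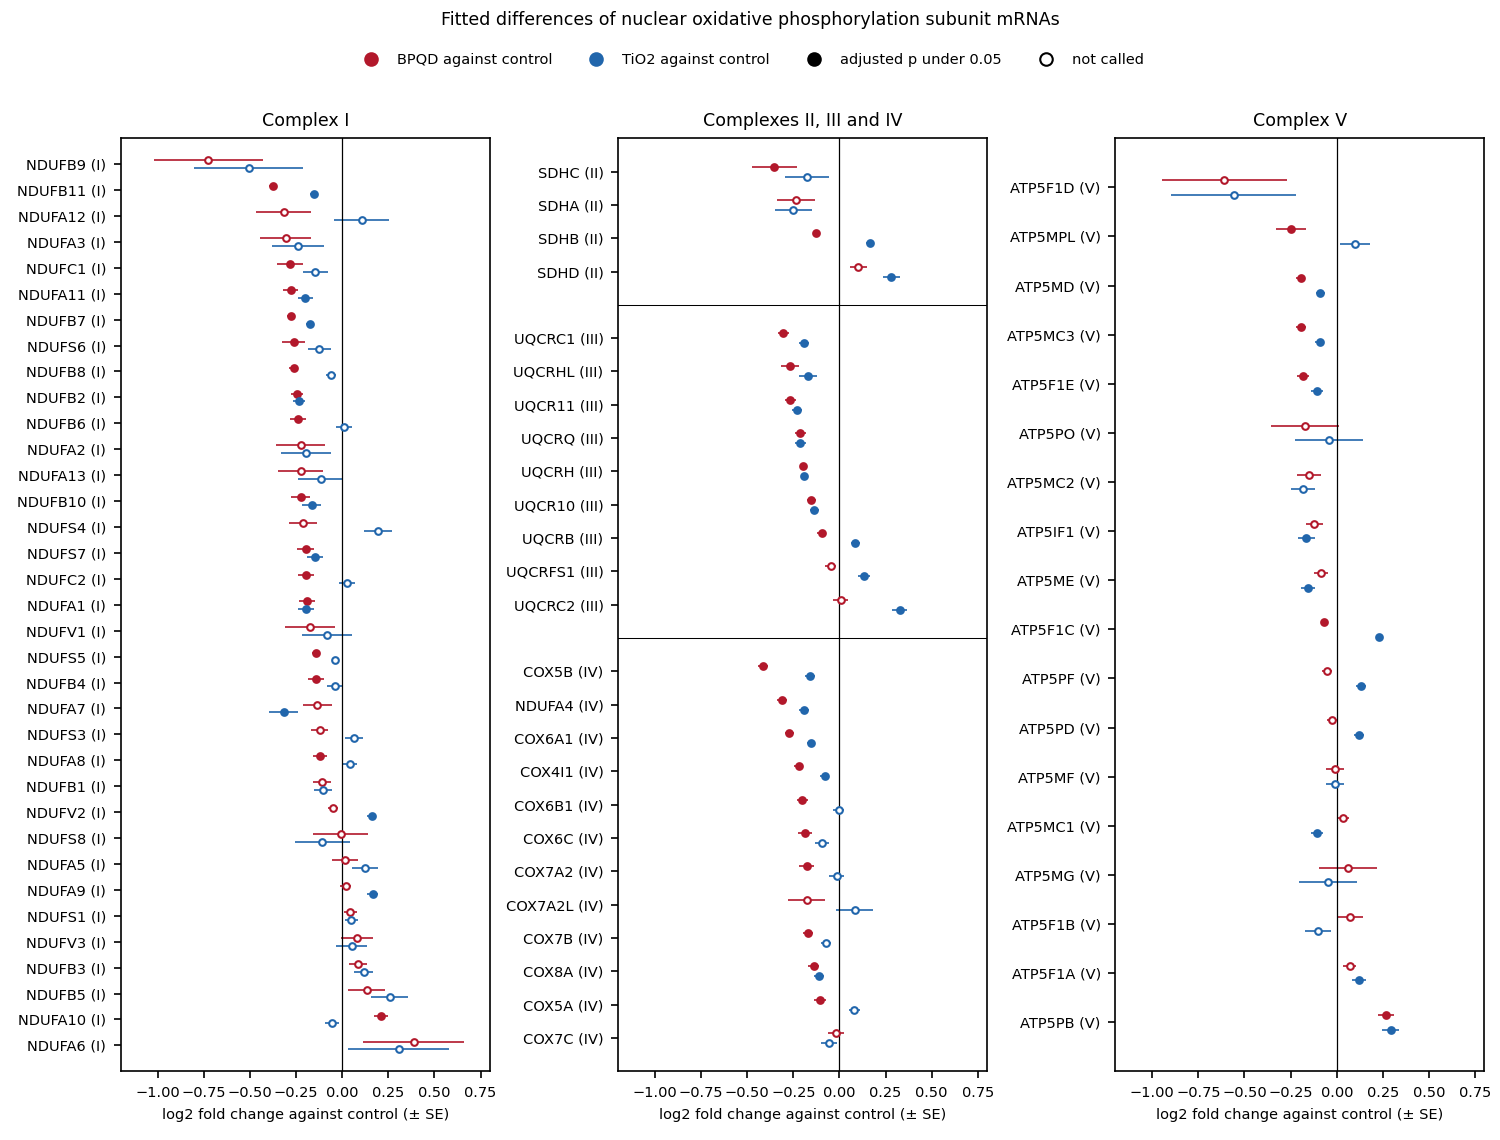
Log2 fold change (± SE) of members against control, BPQD and TiO2 side by side, grouped by complex and ordered by the BPQD value. Filled points passed adjusted p under 0.05 and open points did not; NDUFC2-KCTD14 is not drawn (log2 fold change -1.10 ± 0.57 under BPQD and -1.18 ± 0.57 under TiO2). Under BPQD most filled points are left of 0, with ATP5PB and NDUFA10 right of it, while under TiO2 filled points lie on both sides.

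TiO2 against control gave calls in both directions. Of the 80 members, 26 (32.5%) were lower under TiO2, 12 (15.0%) were higher and 42 did not pass the test, while over all genes tested 20.5% were lower and 17.3% higher, 37.7% in all. Where the mean reached 10 FPKM, 24.8% were lower and 26.3% higher. The median log2 fold change was -0.09 over the members and -0.03 over all genes tested. Of the higher calls, 7 were core subunits of 19 measured and 5 were among the 61 others, while 4 core subunits and 22 of the others were lower, a contrast that was not tested. Complex IV, with 0 members higher and 5 lower, stood wholly among the others here too. Without any 1 library, 10 of the 12 higher and 14 of the 26 lower calls held in every case, and without a filter on low values 17 members were called lower.

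Complex III was divided in full, with 3 members higher and 6 lower under TiO2. UQCRC2 (chr16:21952660-21983660), a large core protein, had 35.3, 35.8 and 32.9 FPKM under TiO2, against 26.2, 27.8 and 28.4 FPKM in control cells. All TiO2 libraries lay above all control libraries, and the log2 fold change of 0.33 ± 0.04 was the largest rise among called members (limma adjusted p = 0.000693). UQCRFS1 rose by 0.13 ± 0.03, and UQCRB, a small subunit at the ubiquinone side, by 0.09 ± 0.03, a call lost without any 1 TiO2 library or control replicate 1 or 2 (adjusted p = 0.0553 to 0.0966) and with no filter, only the 6 libraries compared or quantile normalization (0.0655 to 0.0801). UQCRC1, the partner of UQCRC2, had 73.0, 69.8 and 70.6 FPKM under TiO2 and 80.6, 81.8 and 81.6 FPKM in control cells, so that the paired core proteins went opposite ways (-0.19 ± 0.03, limma adjusted p = 0.00153). The small subunits UQCR11 (-0.23 ± 0.03), UQCRQ (-0.21 ± 0.03), UQCRH (-0.19 ± 0.02) and UQCR10 (-0.14 ± 0.03) fell. UQCRHL was also called lower (-0.17 ± 0.05), a call lost without TiO2 replicate 2 or 3 or any 1 control library (adjusted p = 0.0502 to 0.0713) and with no filter (0.0579).

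In complex II, SDHB had 62.6, 61.8 and 61.6 FPKM under TiO2, against 54.3, 55.7 and 55.8 FPKM in control cells. Its TiO2 libraries were above all control libraries (log2 fold change 0.16 ± 0.02, limma adjusted p = 0.00058). SDHD, the anchor whose promoter stretch is printed above, had 20.3, 19.1 and 20.9 FPKM under TiO2 and 16.9, 15.9 and 16.4 FPKM in control cells (0.28 ± 0.05, limma adjusted p = 0.00264). The flavoprotein SDHA had 44.1, 33.0 and 36.4 FPKM under TiO2 and 43.6, 42.6 and 48.6 FPKM in control cells, and its groups overlapped (limma adjusted p = 0.0919). SDHC had 6.86 ± 0.497 FPKM under TiO2 and 7.86 ± 0.147 in control cells (limma adjusted p = 0.299).

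Complex V had 5 members higher and 6 lower under TiO2. ATP5PB rose again, at 79.6, 79.7 and 71.4 FPKM under TiO2, against 63.3, 63.2 and 61.2 FPKM in control cells (log2 fold change 0.29 ± 0.04, limma adjusted p = 0.00166). With it rose ATP5PF (0.13 ± 0.03) and ATP5PD (0.12 ± 0.03), so that 3 of the 4 peripheral stalk subunits were called higher, while the fourth, ATP5PO, had 36.8, 26.9 and 28.5 FPKM under TiO2 and 25.5, 33.5 and 36.3 FPKM in control cells. ATP5F1C, the gamma subunit of the central stalk, had 54.0, 54.2 and 52.7 FPKM under TiO2 and 44.9, 45.5 and 46.2 FPKM in control cells (0.23 ± 0.02, limma adjusted p = 0.00013). The alpha subunit ATP5F1A, which alternates with beta in the head of the enzyme, rose by 0.12 ± 0.04, a call lost without any 1 TiO2 library or control replicate 1 or 2 (adjusted p = 0.0698 to 0.102), and also with no filter and after quantile normalization (0.0843 and 0.117). The lower calls were ATP5ME (-0.16 ± 0.04), the inhibitor ATP5IF1 (-0.17 ± 0.05), ATP5MC1 (-0.11 ± 0.03), ATP5F1E (-0.11 ± 0.03), ATP5MC3 (-0.09 ± 0.03) and ATP5MD (-0.09 ± 0.03). The call of ATP5ME was lost without control replicate 2 (adjusted p = 0.05), that of ATP5IF1 without TiO2 replicate 1 or 2 or control replicate 2 or 3 (0.0649 to 0.0723), and that of ATP5MC1 without any 1 TiO2 library or control replicate 1 or 2 (0.0623 to 0.0975). That of ATP5MC3 was lost without TiO2 replicate 1 or 2 or control replicate 1 or 3 (0.0576 to 0.0691), that of ATP5MD without TiO2 replicate 1 or 3 or control replicate 1 or 3 (0.0591 to 0.0814), and that of ATP5F1E without BPQD replicate 2 or any 1 TiO2 or control library (0.0518 to 0.0965). With no filter, the calls of ATP5IF1, ATP5MC1, ATP5MD and ATP5F1E were lost (0.0593 to 0.0858), with only the 6 libraries compared those of ATP5IF1, ATP5MC3 and ATP5MD (0.0509 to 0.0636), and as TPM those of ATP5MC1, ATP5MD and ATP5F1E (0.0543 to 0.0553).

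In complexes I and IV, most of the TiO2 calls were lower. Complex I had 9 lower, 2 higher and 26 not called of 37, and complex IV had 5 lower and 0 higher of 12. Over all genes tested 20.5% were lower and 17.3% higher, and 24.8% and 26.3% where the mean reached 10 FPKM. NDUFA7, an accessory subunit of the matrix arm, had 19.3, 18.3 and 17.8 FPKM under TiO2, against 21.6, 24.3 and 24.0 FPKM in control cells (log2 fold change -0.32 ± 0.08, limma adjusted p = 0.0148), a call lost without control replicate 2 (adjusted p = 0.0503). NDUFB2 (-0.24 ± 0.03), NDUFA11 (-0.20 ± 0.04), NDUFA1 (-0.20 ± 0.04), NDUFB7 (-0.18 ± 0.02) and NDUFB11 (-0.15 ± 0.02) also fell. NDUFV2, a core iron-sulfur subunit of the part that oxidises NADH, had 30.8, 31.5 and 31.0 FPKM under TiO2 and 27.6, 28.1 and 27.5 FPKM in control cells and rose (0.16 ± 0.03, limma adjusted p = 0.00194), as did NDUFA9 (0.17 ± 0.03), an accessory subunit near the ubiquinone site. In complex IV no member was called higher, COX5A having 85.4, 81.3 and 79.5 FPKM under TiO2 and 79.3, 77.5 and 75.8 FPKM in control cells (limma adjusted p = 0.0762), while NDUFA4 (-0.19 ± 0.03), COX5B (-0.16 ± 0.03) and COX6A1 (-0.16 ± 0.02) fell, with COX5B at 103, 97.5 and 101 FPKM under TiO2 and 112, 113 and 111 FPKM in control cells. COX8A (-0.11 ± 0.03) and COX4I1 (-0.08 ± 0.03) were called as well, COX8A being lost without TiO2 replicate 1 or 2 or control replicate 1 or 3 and COX4I1 without BPQD replicate 1 or any 1 TiO2 or control library (adjusted p = 0.0517 to 0.106), both with no filter (0.0545 and 0.0763), and COX4I1 also as TPM (0.0793).

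**Figure D3:**
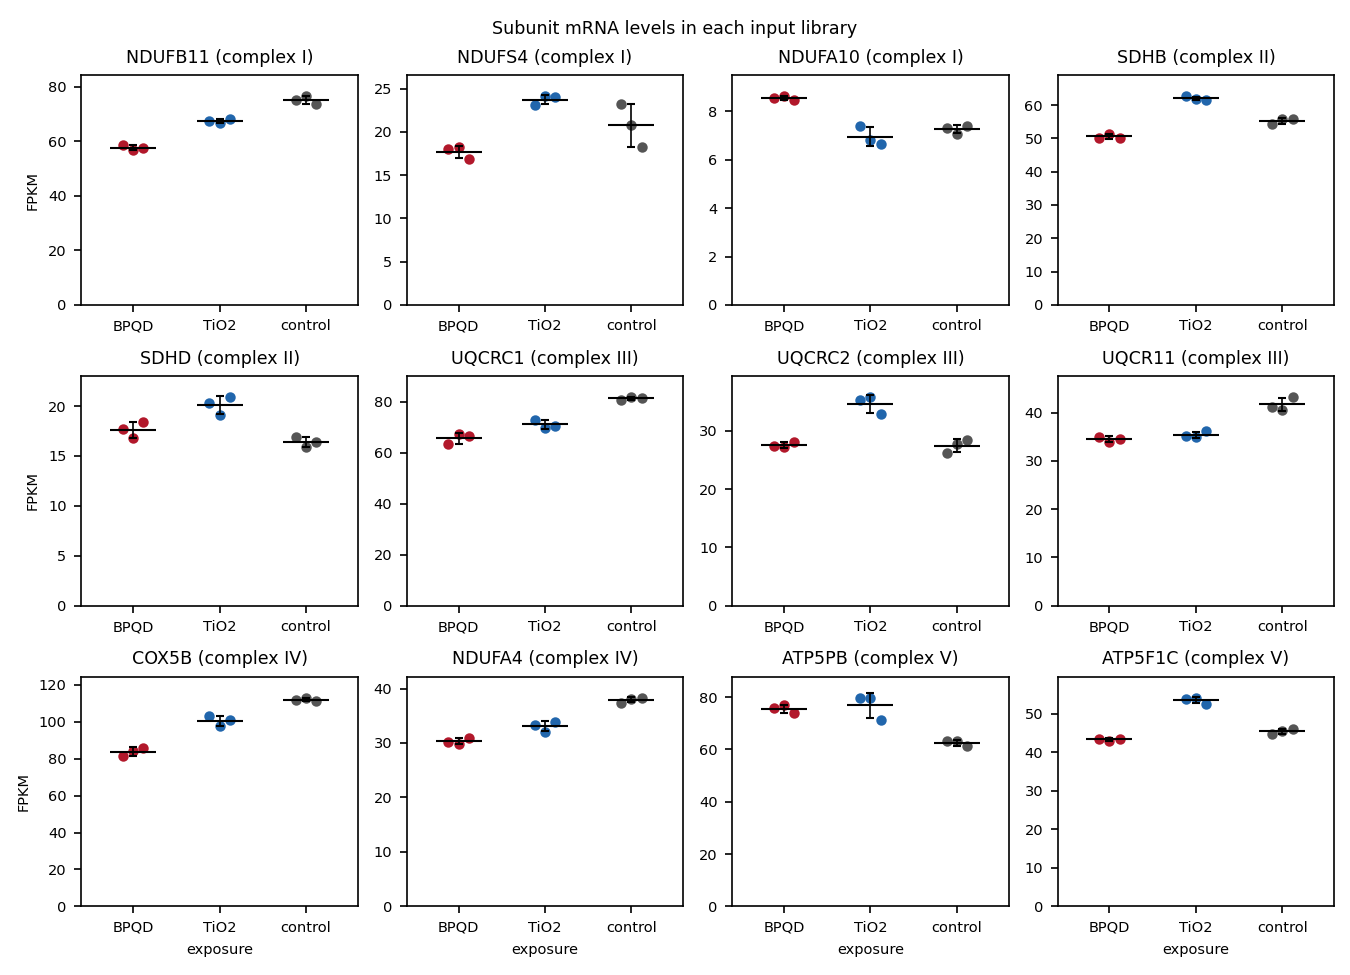
FPKM of 12 members in each of the 9 input libraries, under BPQD, under TiO2 and in control cells. Points are libraries and bars are the mean ± SD (n = 3 each). COX5B, NDUFB11 and NDUFA4 are lowest under BPQD and highest in control cells, SDHB, UQCRC2 and ATP5F1C are highest under TiO2, and ATP5PB is higher under both exposures than in control cells.

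BPQD was then set against TiO2, which does not use the control libraries in its fold changes. Of the 80 members, 31 (38.8%) were lower under BPQD than under TiO2, 2 (2.50%) were higher and 47 did not pass the test, against 18.6% lower and 19% higher, 37.6% in all, over all genes tested. Where the mean reached 10 FPKM, 23.5% were lower and 21.6% higher. Among all called genes 50.5% were higher under BPQD, and 60.5% after rescaling to TPM. The median log2 fold change was -0.10 over the members and 0.003 over all genes tested, and over the members -0.07 after rescaling to TPM. By complex, the lower calls were 11 of 37, 2 of 4, 4 of 9, 8 of 12 and 6 of 18 for complexes I to V. Without BPQD replicate 1, 4 members in place of 2 were called higher.

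NDUFS4 (chr5:53560633-53683338), an accessory subunit needed for a stable complex I, had 18.0, 18.2 and 16.9 FPKM under BPQD, against 23.1, 24.1 and 24.0 FPKM under TiO2. The groups did not overlap, and the log2 fold change of -0.40 ± 0.08 was the largest among called members (limma adjusted p = 0.00461). UQCRC2 had 27.4, 27.2 and 28.1 FPKM under BPQD and 35.3, 35.8 and 32.9 FPKM under TiO2 (-0.32 ± 0.04, limma adjusted p = 0.000728). ATP5F1C (-0.30 ± 0.02), SDHB (-0.29 ± 0.02), COX5B (-0.26 ± 0.03) and ATP5MPL (-0.35 ± 0.08) were also lower under BPQD. In complex III, UQCRFS1 (-0.18 ± 0.03) and UQCRC1 (-0.11 ± 0.03) were called lower as well, the call of UQCRC1 being lost after rescaling to TPM (adjusted p = 0.0662). NDUFA10 (0.26 ± 0.04) and ATP5MC1 (0.14 ± 0.03) were higher under BPQD than under TiO2, NDUFA10 at 8.57, 8.62 and 8.45 FPKM under BPQD and 7.40, 6.80 and 6.67 FPKM under TiO2. ATP5PB, higher under both materials than in control cells, had 75.5 ± 1.63 FPKM under BPQD and 76.9 ± 4.74 under TiO2, a difference that was not called (limma adjusted p = 0.699).

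Subunits that mitochondrial DNA encodes were read from the same libraries. The spans of MT-ATP8 and MT-ATP6 overlap, as do those of MT-ND4L and MT-ND4, so the 13 genes listed are not 13 separate mRNAs. Of these 13 genes, 7 (53.8%) were higher under BPQD than in control cells and none lower, beside 20.6% and 23.4% of all genes tested. None was higher and 1 (7.69%), MT-ND5 (-0.24 ± 0.05), was lower under TiO2 against control, beside 17.3% and 20.5%. Against TiO2, 6 (46.2%) were higher and none lower under BPQD, beside 19% and 18.6%. The call of MT-ND5 under BPQD against control (0.15 ± 0.05) ended when BPQD replicate 2 or 3, TiO2 replicate 2 or control replicate 1 or 2 was left out (adjusted p = 0.0652 to 0.138), and with no filter (0.0946). MT-ND4L, a membrane subunit of complex I, had 53.7, 50.1 and 52.7 FPKM under BPQD and 35.5, 35.9 and 38.8 FPKM in control cells (log2 fold change 0.50 ± 0.05, limma adjusted p = 0.000126). MT-CO2 and MT-ND2 are listed at 0 in control replicate 1, and MT-ATP6 is listed at 0.0232 FPKM in BPQD replicate 1 and 0.0207 FPKM in control replicate 1, beside 10.3 to 16.4 FPKM in the other libraries, so these 3 are left out of sums. These 3 remain among the 13 in the counts of calls, and MT-ATP8, which overlaps MT-ATP6, is kept in the sums. The other 10 summed to 402, 396 and 410 FPKM under BPQD, 362, 348 and 328 under TiO2 and 334, 326 and 354 in control cells, the BPQD libraries being above all others.

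Genes that build or regulate the pathway were read as well. Of 57 assembly factors measured, 11 (19.3%) were higher and 9 (15.8%) lower under BPQD against control, beside 20.6% and 23.4% of all genes tested. Under TiO2 against control 9 (15.8%) were higher and 7 (12.3%) lower, beside 17.3% and 20.5%, and under BPQD against TiO2 8 were higher and 6 lower. In complex IV assembly, COX15, which makes haem A, rose by 0.35 ± 0.03 under BPQD and COA7 by 0.33 ± 0.02, while the copper chaperone COX17 fell by 0.35 ± 0.05. Of 14 regulators of mitochondrial biogenesis, 8 (57.1%) were higher and none lower under BPQD against control, beside 20.6% and 23.4% of all genes tested. Under TiO2 against control 4 (28.6%) of them were higher and 3 (21.4%) lower, beside 17.3% and 20.5%. Under BPQD against TiO2 6 (42.9%) were higher and 1 (7.14%) lower, beside 19% and 18.6%. PPARGC1A, the coactivator PGC-1 alpha, had 2.18, 2.08 and 2.18 FPKM under BPQD, 2.14, 2.15 and 2.17 under TiO2 and 1.38, 1.51 and 1.42 in control cells. Its log2 fold change against control was 0.37 ± 0.04 under either material (limma adjusted p = 0.000171 under BPQD and 0.000214 under TiO2). TFB2M and TEFM, which serve transcription of mitochondrial DNA, rose under BPQD by 0.42 ± 0.05 and 0.36 ± 0.03 and under TiO2 by 0.34 ± 0.05 and 0.20 ± 0.03. Cytochrome c itself, CYCS, averaged 63.6 ± 0.542 FPKM under BPQD, 64.1 ± 4.72 under TiO2 and 50.8 ± 1.05 in control cells (SD, n = 3 each), higher under both (0.32 ± 0.05 and 0.33 ± 0.05). CYC1, the cytochrome c1 of complex III, which the naming rule does not catch, had 66.0, 67.2 and 69.1 FPKM under BPQD, 75.0, 75.5 and 78.2 under TiO2 and 85.7, 86.6 and 86.4 in control cells and fell under both (-0.35 ± 0.02 and -0.18 ± 0.02).

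The m6A mark of the members was taken from the authors' deposited peak tables, which give 1 log2 fold change of enrichment per peak with no values per replicate. Under BPQD, 25 of the 80 members (31.2%) had at least 1 peak at the authors' p under 0.05 in the authors' deposited table, against 43.6% of all tested genes and 49.2% of those with a mean of at least 10 FPKM. Under TiO2 the number was 19 members (23.8%), against 39.9% and 43.3%. No peak of any kind is listed in the authors' deposited tables for 51 members under BPQD and for 53 under TiO2. Of 38 differential peaks at members under BPQD, 28 (73.7%) were lower and 10 higher, where 44.5% of the differential peaks of all tested genes and 59.8% of those of genes averaging 10 FPKM or more were lower. Under TiO2, 18 of 24 (75.0%) were lower and 6 higher, against 38.8% and 53.7%. Peaks placed in the 5′ UTR by the authors' deposited tables were lower in 15 of 18 cases under BPQD and 11 of 12 under TiO2, against 56.4% and 35.0% for all tested genes. Several of these peaks run over long stretches of genome, introns included. Examples are NDUFV3 (9979 bases) and NDUFA8 (7397 bases) under BPQD and UQCR11 (6006 bases) under TiO2. The place is the authors' label, so these counts do not locate the difference in the 5′ UTR. No 5′ UTR share was taken for genes averaging 10 FPKM or more, whose differential peaks of all kinds were more often lower. The peaks of a gene share its RNA, so they are not independent of each other. Some listed peaks also overlap and are counted apart, as at NDUFB8 under both materials.

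Among single peaks, the authors' deposited table gives NDUFS5 a peak placed in the 5′ UTR with a log2 fold change of -0.36 (authors' p = 1e-116) under BPQD. The authors' deposited table for TiO2 lists one with the same start at -0.20 (authors' p = 7.94e-49), but it spans 8117 bases of genome, introns included, against 2609 bases for the BPQD peak, so the pair is not 1 region. The 5′ UTR peak of UQCRH, 5609 bases wide in both, is listed in the authors' deposited tables at -0.35 (authors' p = 1e-101) under BPQD and -0.08 (authors' p = 3.55e-08) under TiO2. That of COX6A1 stood at -0.24 and -0.22, and that of the ATP synthase inhibitor ATP5IF1 at -0.30 and -0.21, in the authors' deposited tables for BPQD and TiO2. NDUFS5, UQCRH and COX6A1 themselves had lower FPKM under BPQD than in control cells. ATP5IF1 was not called there (limma adjusted p = 0.0597), and ATP5MC3, whose higher peaks follow, was called lower (log2 fold change -0.19). Peaks and FPKM were not tested against each other. Peaks that went up were few: in the authors' deposited table for BPQD, ATP5MC3 had 5′ UTR peaks at 3.74 and 2.26 (authors' p = 0.00977 and 0.00851), and an exon peak of SDHA stood at 1.33 (authors' p = 3.72e-05). NDUFA13, an accessory subunit of complex I, had a 5′ UTR peak at 0.46 under BPQD and 0.75 under TiO2 in the authors' deposited tables. An exon peak that they list under NDUFA6, higher under both materials, is annotated there to the exon of another gene ID.

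**Figure D4:**
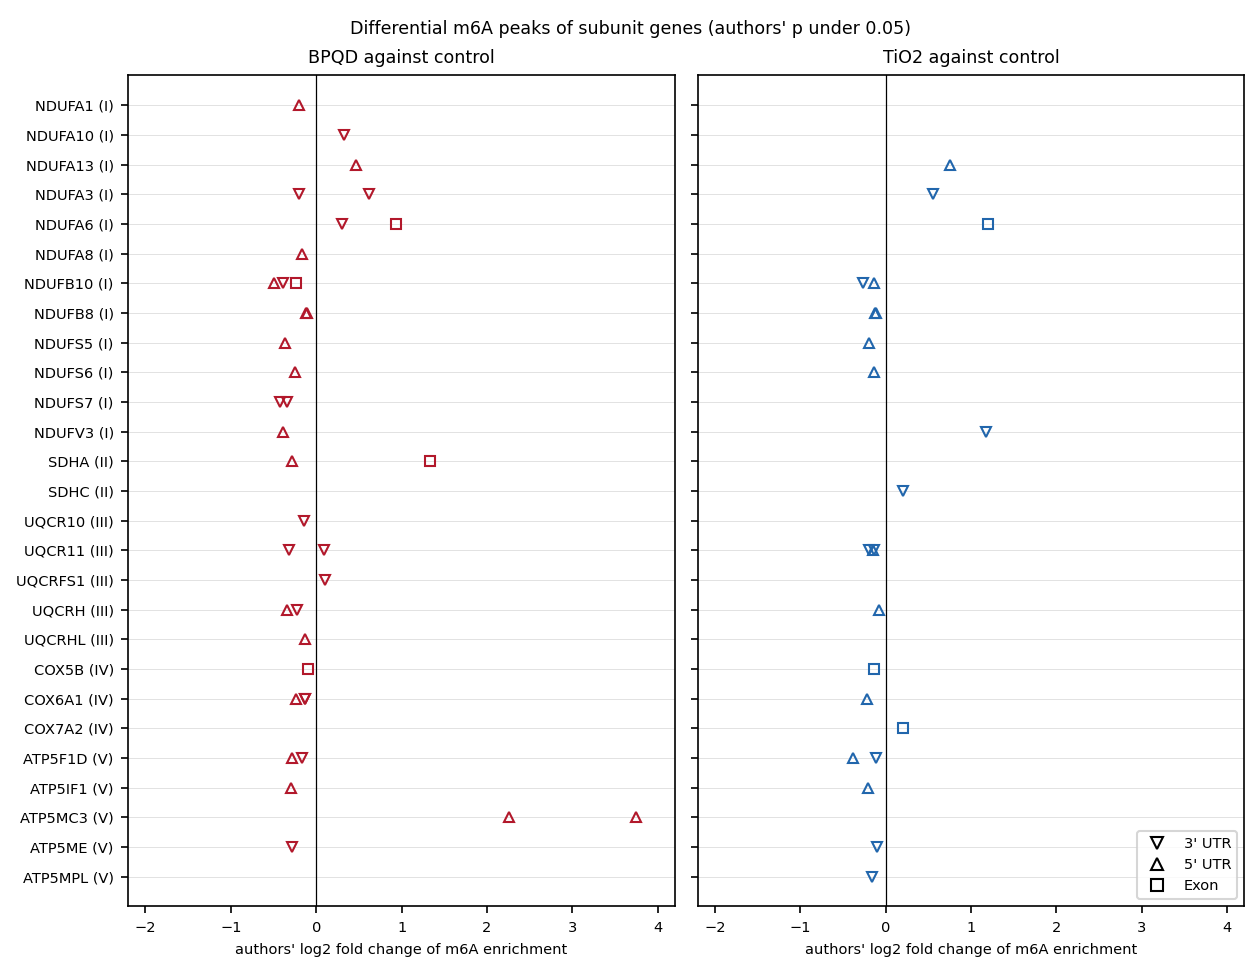
Log2 fold change of m6A enrichment from the authors' deposited tables for differential peaks (authors' p under 0.05) of members, under BPQD (left) and under TiO2 (right) against control. Symbols give the authors' label for the place of the peak, and some peaks extend beyond that place. Most points lie left of 0 (28 of 38 under BPQD and 18 of 24 under TiO2, counting 1 lower peak under each material that is not drawn), and the ATP5MC3 peaks under BPQD lie farthest right.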

How the data were processed

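Input and m6A-immunoprecipitated RNA of 3 groups was sequenced, 3 libraries of each kind per group. The deposited expression table gives FPKM per gene, estimated by the authors; the submitters' processing notes name HISAT2, StringTie 1.3.0 and the build mm10, while the gene IDs are human and 79 of the 80 members were found at overlapping places in RefSeq GRCh38.p14. The deposited peak tables give the authors' log2 fold change, p-value and a score (log10 of the false discovery rate) per peak. In all, 12 per-sample columns were not used. From the FPKM, log2(FPKM + 1) of the 12224 genes whose mean reached 1 FPKM was fitted with limma 3.58.1 in R 4.3.3 on all 9 input libraries, and p-values were adjusted (Benjamini-Hochberg) over all genes; the script was tested on simulated data. Read totals per library were not used here, so depth is known only relative to one library and no counting interval is given. Members and gene lists were chosen with earlier results of these data known. By the rule for names, up to 3 called members per complex, comparison and direction with the largest change could be named, with those that go against their complex, the highest of each complex, complex II, isoform families, members with a differential peak and up to 3 called genes per list and direction. Not all of these are described, and others named were chosen after their values were seen. Alternatives were another pseudocount, other filters, other scalings, only the 6 libraries compared, a replicate block and leaving out each library. Sequences are from RefSeq (GRCh38.p14). Summaries used Python 3.11.15 with pandas 2.3.3, and figures matplotlib 3.10.9. Single values of 1 member are not reported here, and it is counted in totals but not drawn.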

Additional observations from a re-analysis of the deposited data

How the results depend on the processing

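Of 3261 alternative values for 193 pairs of a gene and a comparison, 2898 kept their direction and side of the threshold, 322 (53 pairs) lost the call, 21 gained one and 20 (8 pairs, none called) changed sign. The median of the members stayed below 0 in each alternative run. For BPQD against control it was -0.18 with a pseudocount of 0.1, -0.124 as TPM, -0.15 after median centring and -0.149 after quantile normalization, and -0.172 to -0.147 without 1 library. For TiO2 against control it was -0.072 as TPM, -0.092 after quantile normalization and -0.089 to -0.075 without 1 library. For BPQD against TiO2 it was -0.065 as TPM, -0.084 after median centring, -0.073 after quantile normalization and -0.104 to -0.092 without 1 library. Members called higher under BPQD numbered 4 as TPM against control, and 5 as TPM, 4 after quantile normalization and 2 to 4 without 1 library against TiO2. Members called lower under TiO2 numbered 17 with no filter on low values. With a minimum mean of 5 FPKM, which tests fewer genes, 3495 genes changed between BPQD and control and 2832 between BPQD and TiO2. The share of higher genes among those called between BPQD and TiO2 was 61.5% with no filter.

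The sign changes were in values near 0. Under TiO2 against control, COX6B1 stood at 0.011 as TPM, 0.002 after median centring and -0.017 to 0.017 without 1 library, COX7A2 at 0.002 as TPM and -0.048 to 0.007 without 1 library, COX7A2L at -0.024 to 0.141 without 1 library, and NDUFS5 at 0.033 after quantile normalization. Under BPQD against TiO2, COX8A stood at 0.011 as TPM and 0.023 after quantile normalization, UQCRH at 0.031 as TPM, 0.008 after median centring, 0.037 after quantile normalization and -0.015 to 0.002 without 1 library, ATP5MC2 at -0.027 to 0.087 and SDHA at -0.076 to 0.126 without 1 library. The cause of these changes was not tested.

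With the replicate block, 4996, 4160 and 4150 genes changed (BPQD against control, TiO2 against control, BPQD against TiO2), and 3, 12 and 2 members were called higher and 35, 23 and 32 lower. The block ended calls of SDHC (limma adjusted p = 0.0588), ATP5F1C (0.0702), ATP5MPL (0.0662) and MT-ND5 (0.0997) under BPQD against control. ATP5F1A (0.0721), UQCRB (0.0757), ATP5MD (0.0624) and COX4I1 (0.0827) lost theirs under TiO2 against control. Same-numbered libraries correlated at -0.083 to 0.073 in their deviations from the group means, and 3 of 9 libraries correlated best with their own number. Whether samples with the same number were handled together is not stated in the labels and was not tested. Members with a differential peak numbered 21 under BPQD and 17 under TiO2 at the authors' p under 0.01. A correction for transcript length was not run. Depth is known only in relative terms, so small differences of low members cannot be set against counting error.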
